A study of Mus musculus with 6 samples.

Results

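The core clock genes Arntl, Clock, Per1, Per2, Per3, Cry1, Cry2, Nr1d1, Nr1d2 and Rora were followed in the gastrocnemius, the large fast-twitch muscle of the mouse calf. They were chosen by gene symbol from a table of 11815 genes, and all 10 had a row. The series compared mice lacking the long non-coding RNA lnc-ORA with wild-type (WT) mice. In the knockout (KO) line, of C57BL/6 background, Cas9 and guide RNAs injected into fertilized eggs had removed 5147 bp holding the whole transcript, and founders were crossed with wild-type mice. Muscle was taken at 15 weeks. Replicates 2, 3 and 4 stand for WT and replicates 1, 2 and 3 for KO, which makes 3 libraries per genotype. No clock time of collection, light schedule or sex was found in the labels, so the point of the day that each library stands for is not given. The labels do not name littermates, founder lines, zygosity or the animal behind a library, so p-values cover no more than the spread among the 6 libraries, which may be technical.

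The mammalian clock is a feedback loop of transcription. The proteins of Arntl (also called Bmal1) and Clock pair up and bind E-box sequences, where they switch on the Per and Cry genes and the nuclear receptor genes Nr1d1 and Nr1d2. The PER and CRY proteins build up and shut off the Arntl and Clock pair. In a second loop the receptors of Nr1d1 and Nr1d2 (REV-ERB alpha and beta) repress Arntl and Clock through a DNA element that Rora activates. Skeletal muscle has its own clock, which drives daily rhythms of fuel use and of many muscle genes.

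Values were RPKM, reads scaled by gene length and by library total. Levels of different genes can be set side by side only on the lengths used. For all core clock genes but Nr1d2 that length was all annotated exons joined. It can exceed any transcript: for Arntl it was 7523 bases, where the longest transcript had 3995. The libraries held 54370181 to 69693905 counted reads, and the 10 genes had between 102 reads (Per2 in WT replicate 3) and 3477 reads (Rora in WT replicate 2) in a library. The muscle label was checked on 8 fibre markers (Ckm, Acta1, Myh4, Myh1, Tnnt3, Mb, Tnnc2 and Actn3), all tested, whose summed level was 115200 to 129570 RPKM in WT and 130680 to 142750 in KO. Of these, Myh1 and Mb fell (log2 changes -1.09 and -0.91, limma adjusted p = 0.0225 and 0.014). The locus of lnc-ORA was not analysed here, so the genotype labels were taken as given.

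Short stretches of promoter show the elements through which the loop is known to work, in the members where a search found them. RefSeq promoters of GRCm38.p6 were matched for 9 of the 10 genes (13 start sites), each from 250 bases before the start base to 50 from it on. Per2 had no entry. Both strands were searched for the E-box CACGTG, its variant CACGTT, the REV-ERB and ROR element TAGGTCA or TGGGTCA, the D-box TTATGTAA or TTACGTAA and the cAMP response element TGACGTCA. Matches are in capitals and each sequence runs 5′ to 3′ on the strand of its gene.
Arntl, chr7:113207529-113207558, plus strand: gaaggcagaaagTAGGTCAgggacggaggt
Per1, chr11:69098771-69098800, plus strand: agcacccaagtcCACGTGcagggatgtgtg
Cry1, chr10:85185090-85185149, minus strand: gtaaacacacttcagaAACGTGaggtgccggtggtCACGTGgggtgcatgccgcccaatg
Per3, chr4:151044806-151044880, minus strand: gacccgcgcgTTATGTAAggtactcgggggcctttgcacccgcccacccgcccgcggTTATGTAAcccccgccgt

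Positions are counted from the start base as 0, with negative values before it. The REV-ERB and ROR element of Arntl began at position 30 from one of its 2 start sites. The E-box of Per1 began at -166 and that of Cry1 at -60. Cry1 also held an E-box variant on the other strand, at -79, which reads AACGTG on the strand of the gene. Per3 held 2 D-boxes, at -205 and -158. E-box variants were also found for Cry2 and Nr1d1, at -166 and -28. Clock, Nr1d2 and Rora held none of these letters in the window. Over all 32851 RefSeq promoters of this length, 7.15% held the E-box, 4.68% the variant, 6.45% the REV-ERB and ROR element, 1.06% the D-box and 1.79% the cAMP response element. A match is a description of sequence, not evidence of binding.

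In the KO libraries the negative-limb gene Per2 was higher, and the activators Arntl and Clock and the receptor gene Nr1d1 were lower. Per1, Per3, Cry1, Cry2, Nr1d2 and Rora were not called in the fits that follow here. Of these only Cry2 was called in any alternative fit, as given further below. Levels were compared with limma on log2(RPKM + 1). A filter kept the 7574 genes that reached 1 RPKM in 3 or more libraries, and p-values were adjusted over them by Benjamini-Hochberg. Of the 10 genes 7 passed that filter, and 2 of these were called at an adjusted p under 0.05, both lower. Among all tested genes 17.3% were called, 3.83% higher and 13.5% lower. Higher genes were thus 22.1% of the calls, against 45.7% with library medians made equal and 48.7% with totals that leave out the 10 most abundant genes. The 3 below the filter, Per2, Clock and Per3, were tested in the same fit with no filter, where 1 of the 10 genes was called higher and 3 lower, against 15.6% of 11815 called (3.2% higher and 12.4% lower). Read counts were recovered from RPKM, gene length and depth. A count model on those reads, limma-voom with no filter, also called these 4, against 17.0% of 11814 genes (3.38% higher and 13.6% lower). Its offset is a fraction of 1 read, against 1 RPKM in the other fit, so it shrinks the fold changes of genes near 1 RPKM less.

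**Figure D1:**
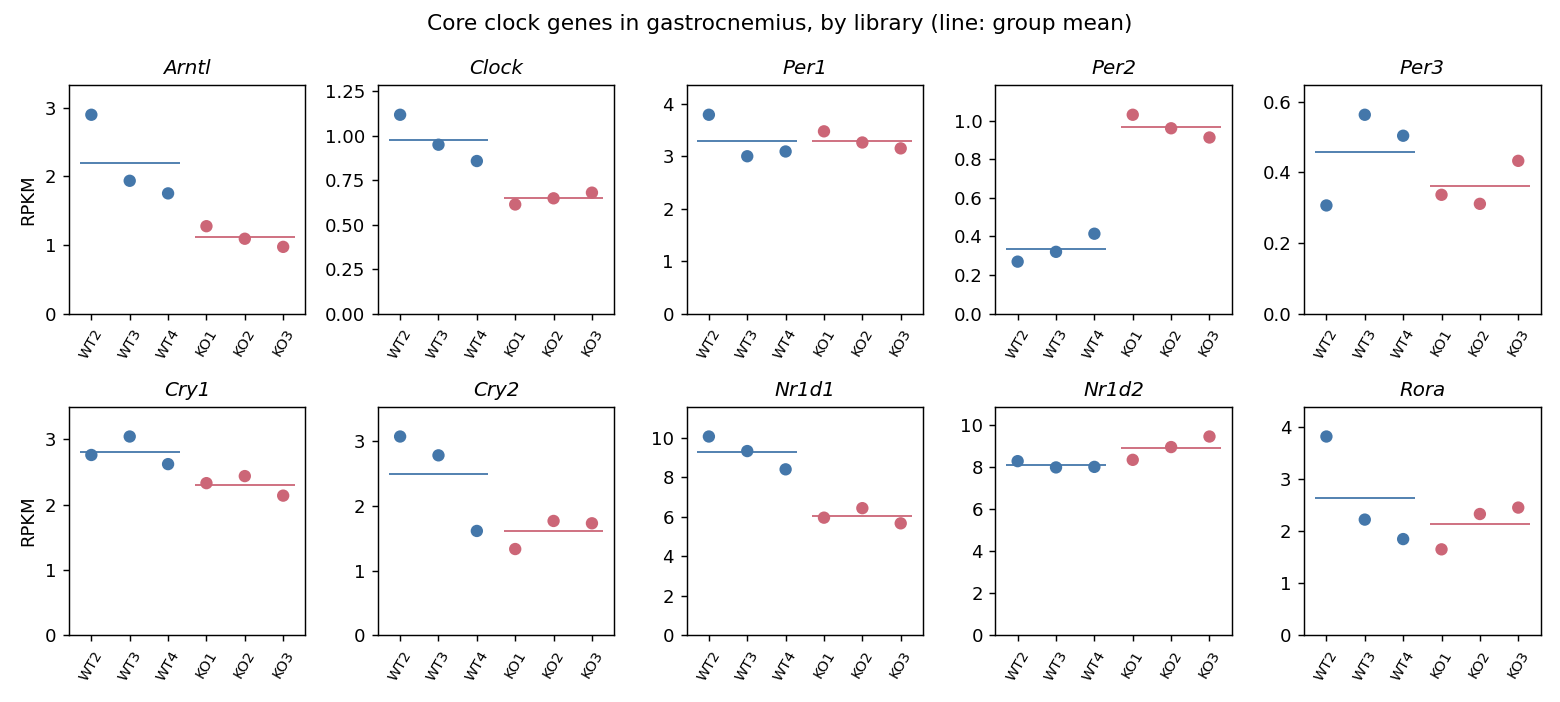
RPKM of the 10 core clock genes in each of the 3 WT (blue) and 3 KO (red) libraries, each panel on its own linear axis from 0, with a line at the group mean. Per2 is higher in every KO library than in any WT library, and Arntl, Clock, Cry1 and Nr1d1 are lower in every KO library.

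Among the activators, Arntl encodes the obligate partner of CLOCK. Arntl stood at 2.90, 1.93 and 1.75 RPKM in WT replicates 2, 3 and 4 and at 1.27, 1.09 and 0.972 RPKM in KO replicates 1, 2 and 3. All KO libraries lay below all WT libraries, and WT replicate 2 was well above the other WT libraries. The group means were 2.19 ± 0.615 RPKM for WT and 1.11 ± 0.152 for KO (SD, n = 3 each), a WT level 1.97 times that of KO. Arntl fell by 0.58 on the log2(RPKM + 1) scale (SE 0.13, limma adjusted p = 0.022), and its log2 change in reads was -0.95 (SE 0.20, limma-voom adjusted p = 0.0127). The call on Arntl ended without KO replicate 1, 2 or 3 (limma adjusted p = 0.0512, 0.0672 and 0.0912), with log2 changes from -0.68 to -0.43 over all 6 omissions.

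Clock, which encodes the other partner of the activating pair, stood at 1.12, 0.950 and 0.858 RPKM in WT replicates 2, 3 and 4. The KO libraries held 0.614, 0.648 and 0.680 RPKM in replicates 1, 2 and 3. The groups did not overlap, and the 3 KO values lay closer together than the WT values. With no filter Clock was lower by a log2 change of -0.26 (SE 0.07, limma adjusted p = 0.0329), and in reads by -0.59 (SE 0.13, limma-voom adjusted p = 0.0149). This call ended without any one library except WT replicate 4, with limma adjusted p of 0.0525 to 0.117 (0.022 without WT replicate 4).

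The Per genes encode the repressors whose build-up closes the loop, and they did not move alike. Per2 stood at 0.270, 0.320 and 0.414 RPKM in WT replicates 2, 3 and 4 and at 1.03, 0.961 and 0.913 RPKM in KO replicates 1, 2 and 3. In reads this was 110, 102 and 159 in WT against 415, 313 and 327 in KO. The lowest KO library held more than 2 times the RPKM of the highest WT library. The mean of Per2 was 0.335 ± 0.0735 RPKM for WT and 0.969 ± 0.0593 for KO (SD, n = 3 each), 2.89-fold higher in KO. Only 1 library reached 1 RPKM, so Per2 failed the filter on low values. With no filter it rose by a log2 change of 0.56 (SE 0.06, limma adjusted p = 0.0017), a size held down by the pseudocount. In reads Per2 rose by 1.55 (SE 0.17, limma-voom adjusted p = 0.0014), and by p it was number 47 of the 11815 genes in the fit with no filter. The call on Per2 held without each library in turn, with limma adjusted p of 0.0016 to 0.0114.

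Per1, a fast-responding member that hormones and cAMP can also induce, stood at 3.79, 2.998 and 3.09 RPKM in WT replicates 2, 3 and 4. In KO replicates 1, 2 and 3 it stood at 3.47, 3.26 and 3.15 RPKM. The groups overlapped and the means of 3.29 ± 0.433 and 3.29 ± 0.165 RPKM (SD, n = 3 each) were nearly equal (log2 change 0.0047, SE 0.09, limma adjusted p = 0.98). Per3, a more dispensable member of the family, ranged from 0.306 to 0.563 RPKM in WT and from 0.311 to 0.432 in KO. Its groups overlapped too (limma adjusted p = 0.376 with no filter, log2 change -0.10, SE 0.07).

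The Cry genes encode the strongest repressors of the loop. Cry1 stood at 2.76, 3.05 and 2.62 RPKM in WT replicates 2, 3 and 4 and at 2.33, 2.44 and 2.14 RPKM in KO replicates 1, 2 and 3. The groups did not overlap, but the log2 change of -0.21 (SE 0.08) did not pass over all genes (limma adjusted p = 0.112). Cry2 stood at 3.08, 2.79 and 1.62 RPKM in WT replicates 2, 3 and 4. In KO replicates 1, 2 and 3 it stood at 1.34, 1.77 and 1.73 RPKM. WT replicate 4 lay among the KO libraries for Cry2, and the log2 change of -0.40 (SE 0.16) did not pass (limma adjusted p = 0.13). Without WT replicate 4 Cry2 was called lower (log2 change -0.59, limma adjusted p = 0.0096). An antisense transcript, D930015M05Rik, covers 4.7% of the exon bases of Cry2, and no source used here says whether reads were counted by strand. The mean of D930015M05Rik was 1.92 ± 0.782 RPKM for the WT libraries and 1.27 ± 0.288 for KO (SD, n = 3 each; limma adjusted p = 0.285).

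The nuclear receptor genes form the second loop. Nr1d1, which encodes REV-ERB alpha, stood at 10.1, 9.33 and 8.41 RPKM in WT replicates 2, 3 and 4 and at 5.96, 6.44 and 5.67 RPKM in KO replicates 1, 2 and 3. The gap between the groups was wider than the range within either. The means were 9.27 ± 0.833 and 6.02 ± 0.389 RPKM (SD, n = 3 each), a log2 change of -0.55 (SE 0.09, limma adjusted p = 0.0076). The call on Nr1d1 held without each library in turn, with limma adjusted p of 0.0056 to 0.0445. The gene overlaps Thra, a thyroid hormone receptor gene, on the opposite strand over 8.5% of its exon bases. If counting ignored strand, reads of the 2 could not be told apart there. The mean of Thra was 7.81 ± 0.65 RPKM for the WT libraries and 7.10 ± 0.703 for KO (SD, n = 3 each), and its groups overlapped (log2 change -0.12, limma adjusted p = 0.411).

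Nr1d2, which encodes REV-ERB beta, stood at 8.30, 7.999 and 8.02 RPKM in WT replicates 2, 3 and 4. The KO libraries held 8.36, 8.97 and 9.47 RPKM in replicates 1, 2 and 3. The KO values all lay above the WT values, KO replicate 1 only just, and the log2 change of 0.12 (SE 0.08) did not pass (limma adjusted p = 0.301). Rora, the activator that competes with the REV-ERB receptors for the same element, stood at 3.82, 2.22 and 1.85 RPKM in WT replicates 2, 3 and 4. Its KO values were 1.65, 2.33 and 2.45 RPKM, inside the range of WT except for KO replicate 1. WT replicate 2 alone lay high. The log2 change of Rora was -0.18 (SE 0.19, limma adjusted p = 0.551), and it was 0.04 without WT replicate 2.

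Over the 10 genes, 6 had groups that did not overlap, 4 lower and 2 higher in KO, where 38.2% of all genes in the table and 39.2% of those past the filter did not overlap. The median log2 change of the 7 tested core clock genes was -0.21, beside -0.09 over all tested genes.

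The authors' deposited table gives its own fold changes, adjusted p-values and no name for its test. In the authors' deposited table the same 4 genes were under an FDR of 0.05, where 1.62% of all genes were. Per2 was at a log2 fold change of 1.56 (FDR 0.0026) and Arntl at -0.90 (FDR 0.0335) in the authors' deposited table. Nr1d1 was at -0.42 (FDR 0.0383) and Clock at -0.44 (FDR 0.0495) in the authors' deposited table. Nr1d2 was just outside at 0.31 (FDR 0.0577) in the authors' deposited table. Per1 stood at 0.30 (FDR 0.219) and Per3 at 0.03 (FDR 0.964) in the authors' deposited table, where the log2 ratios of their mean RPKM were 0.0008 and -0.35. Over all genes the fold changes of the authors' deposited table lay above the log2 ratio of mean RPKM by a median of 0.14. The direction of the 4 genes was the same from both sources.

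**Figure D2:**
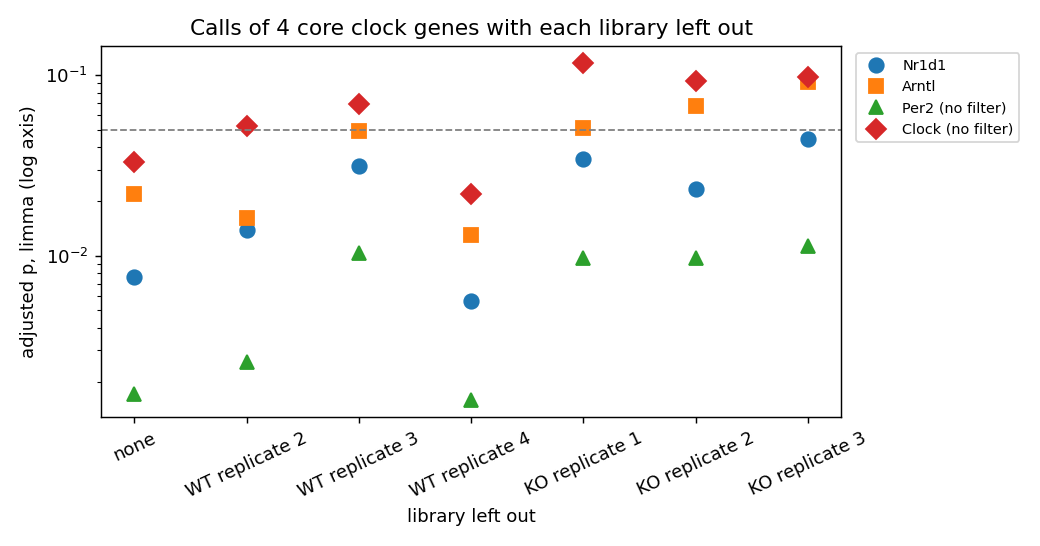
Limma adjusted p (log axis) of Nr1d1, Arntl, Per2 and Clock with all 6 libraries (none) and with each library left out, with a dashed line at 0.05. Per2 and Nr1d1 stay under the line in every case, Arntl is above it without each KO replicate, and Clock is under it only with all libraries and without WT replicate 4.

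The order of levels, which rests on the gene lengths used, changed with genotype. In WT muscle Nr1d1 was the most abundant core clock gene, followed by Nr1d2, and their ranges did not overlap. In KO muscle Nr1d2 came first and Nr1d1 second, again without overlap. Per1 was the third in both genotypes. Cry1, Rora, Cry2 and Arntl followed, and in WT the ranges of neighbours from Per1 down to Arntl all overlapped. Clock, Per3 and Per2 were the lowest in WT, where the ranges of Per3 and Per2 overlapped. In KO the order ran Arntl, Per2, Clock and Per3 at the low end, and Per2 overlapped Arntl while Clock and Per3 stood apart from their neighbours.

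Ratios within a library do not depend on the library total, and they show these shifts directly. Their size depends on the gene lengths used, while their log2 difference between genotypes does not. Per1 stood at 14.1, 9.36 and 7.46 times the level of Per2 in WT replicates 2, 3 and 4. In KO replicates 1, 2 and 3 Per1 was at 3.37, 3.39 and 3.45 times Per2, so the KO ratios were lower and nearly equal. Arntl was at 10.7, 6.04 and 4.22 times Per2 in WT and at 1.23, 1.13 and 1.06 times in KO. The mean log2 ratio of Arntl to Per2 differed by -2.51 between the genotypes, the widest gap of the 6 ratios computed. Nr1d1 was at 1.21, 1.17 and 1.05 times Nr1d2 in WT and at 0.713, 0.718 and 0.599 times in KO, so the receptor pair changed order in every KO library.

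The other 3 ratios overlapped between the genotypes. Cry1 was at 0.898 to 1.62 times Cry2 in WT and 1.23 to 1.75 times in KO. Arntl was at 2.04 to 2.59 times Clock in WT and 1.43 to 2.07 times in KO. Arntl was at 0.207 to 0.288 times Nr1d1 in WT and 0.169 to 0.214 times in KO. No p-value is given for the ratios, since each joins 2 genes that were tested above.

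**Figure D3:**
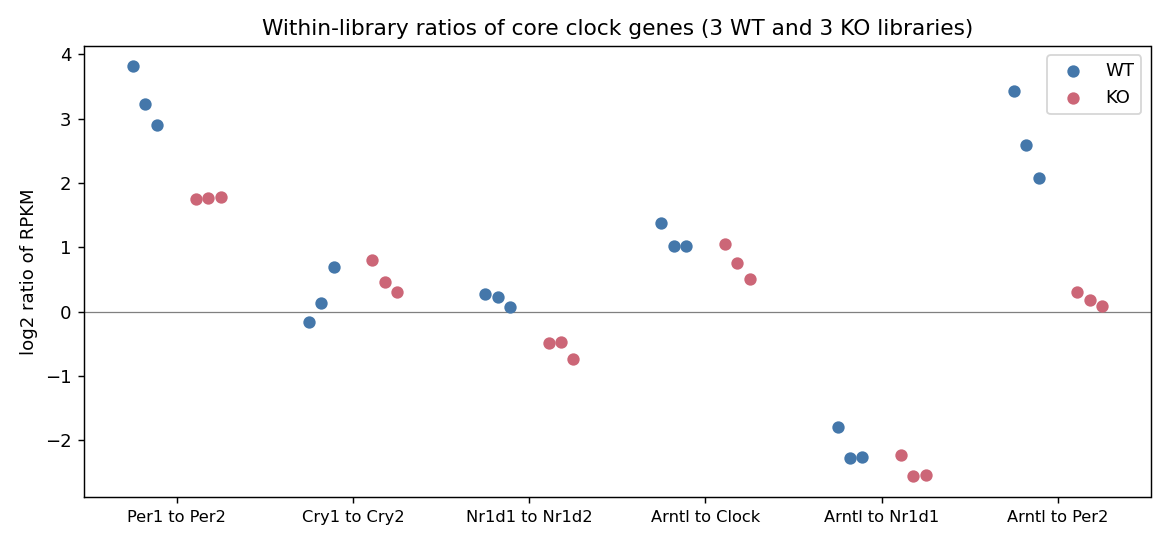
Log2 ratio of RPKM of 6 pairs of core clock genes in each of the 3 WT (blue) and 3 KO (red) libraries, with a line at equal levels. The ratios of Per1 to Per2, Nr1d1 to Nr1d2 and Arntl to Per2 do not overlap between the genotypes, and the other 3 do.

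Genes around the core loop were taken from 5 lists of 52 genes, of which 47 had a row and 37 passed the filter. Of these 37, 5 rose and 5 fell. Over all tested genes 3.83% were called higher and 13.5% lower, which also stand beside the counts of each list below. The share of the 37 that fell was near that of all tested genes, and the lists were chosen with earlier results known. Among further members of the clock gene families, Ciart (Chrono), a repressor of the Arntl and Clock pair, rose from 0.821 ± 0.212 to 1.52 ± 0.345 RPKM (SD, n = 3 each; log2 change 0.47, limma adjusted p = 0.0357). Ciart reached 1 RPKM in the 3 KO libraries and in WT replicate 2 only, so it passed the filter through the group where it was high. With no filter its limma adjusted p was 0.0358. Ciart lost its call when WT replicate 3, WT replicate 4, KO replicate 1 or KO replicate 3 was left out (limma adjusted p of up to 0.127). Npas2 and Rorb were not analysed here.

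Of 5 tested PAR bZIP and Bhlhe factors, which the loop drives directly, 1 fell. Bhlhe40 (Dec1), a repressor at E-boxes, fell from 4.82 ± 0.441 to 2.45 ± 0.547 RPKM (SD, n = 3 each; limma adjusted p = 0.0072). Dbp, a textbook E-box target, stood at 1.73, 2.37 and 2.95 RPKM in WT and 3.92, 3.08 and 4.28 RPKM in KO. It lay at the threshold, with a limma adjusted p of 0.0507 with the filter, 0.0496 without it and 0.0399 in limma-voom. Its relative Hlf, below the filter, went from 0.211 ± 0.0651 to 0.366 ± 0.0132 RPKM (SD, n = 3 each) and rose in the fit with no filter (limma adjusted p = 0.0357). The call on Hlf was lost when WT replicate 3 or any KO replicate was left out (limma adjusted p of up to 0.115). Nfil3, which opposes Dbp at D-boxes, was at 8.88 ± 2.64 and 13.0 ± 0.568 RPKM (SD, n = 3 each; adjusted p = 0.0597 in limma and 0.0495 in limma-voom). The other 2 of the list, Tef and Bhlhe41, had overlapping groups and log2 changes of -0.13 and -0.02 (limma adjusted p = 0.307 and 0.917). The median log2 change of the 5 tested factors was -0.025. The D-boxes printed for Per3 are the element that Dbp, Hlf and Nfil3 bind. Per3 itself, with as few as 166 reads in a library, was not called. Whether these factors act on Per3 here was not tested.

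Of 15 tested regulators of clock protein turnover and activity, 3 fell, Csnk1e and Wdr5 among them, with a median log2 change of -0.17. Csnk1e, the casein kinase that marks PER proteins for breakdown, had a mean of 10.8 ± 1.35 RPKM for WT and 6.25 ± 0.183 for KO (SD, n = 3 each). Csnk1e fell by 0.70 on the log2(RPKM + 1) scale (SE 0.10, limma adjusted p = 0.0048). Wdr5, a chromatin factor bound by PER complexes, fell from 4.67 ± 0.544 to 3.36 ± 0.172 RPKM (SD, n = 3 each; limma adjusted p = 0.0312). Csnk1d, the close relative of Csnk1e, was at a log2 change of -0.26 and was not called (limma adjusted p = 0.123). The call on Wdr5 ended with library medians made equal (limma adjusted p = 0.0724) and without any one library but WT replicate 4 (up to 0.1).

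Of 8 tested genes known to follow the clock in muscle, 1 rose. Usp2, a deubiquitinase with a strong daily rhythm in many tissues, rose from 3.35 ± 0.0742 to 4.46 ± 0.176 RPKM (SD, n = 3 each; limma adjusted p = 0.021), and its call ended without WT replicate 3 or any KO replicate (up to 0.1). Noct (nocturnin), below the filter, went from 0.420 ± 0.157 to 0.931 ± 0.0433 RPKM (SD, n = 3 each) and rose in the fit with no filter (limma adjusted p = 0.0089). The titin cap gene Tcap, the glucose transporter gene Slc2a4 and the kinase gene Pdk4 were not called (limma adjusted p = 0.511, 0.63 and 0.21). Of 10 genes of the CREB and glucocorticoid inputs to Per1 and Per2, the 6 that passed the filter are the glucocorticoid receptor gene and genes that glucocorticoids induce, and 3 of them rose. The CREB-side genes Crem, Creb1, Crtc2 and Sik1 failed the filter and were not called without it (limma adjusted p from 0.342 to 0.987). The glucocorticoid receptor gene Nr3c1 rose from 3.86 ± 0.483 to 6.01 ± 0.464 RPKM (SD, n = 3 each; limma adjusted p = 0.0109), and its targets Sgk1 and Tsc22d3 rose by log2 changes of 0.66 and 0.41 (limma adjusted p = 0.0209 and 0.0318). The other 3 were not called in limma and did not share a direction. Klf9 had means of 15.3 ± 4.32 RPKM for WT and 11.4 ± 2.16 for KO (SD, n = 3 each; log2 change -0.38, limma adjusted p = 0.227). Fkbp5 was at a log2 change of 0.23 (limma adjusted p = 0.553). Zbtb16 had means of 6.35 ± 3.62 RPKM for WT and 12.8 ± 2.53 for KO (SD, n = 3 each). It lay at the threshold, with an adjusted p of 0.0651 in limma and 0.04997 in limma-voom with no filter. The calls ended for Nr3c1 without KO replicate 3 (0.0545), for Sgk1 without KO replicate 1 or 3 (up to 0.0832) and for Tsc22d3 without WT replicate 3 or KO replicate 1 or 3 (up to 0.122).

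**Figure D4:**
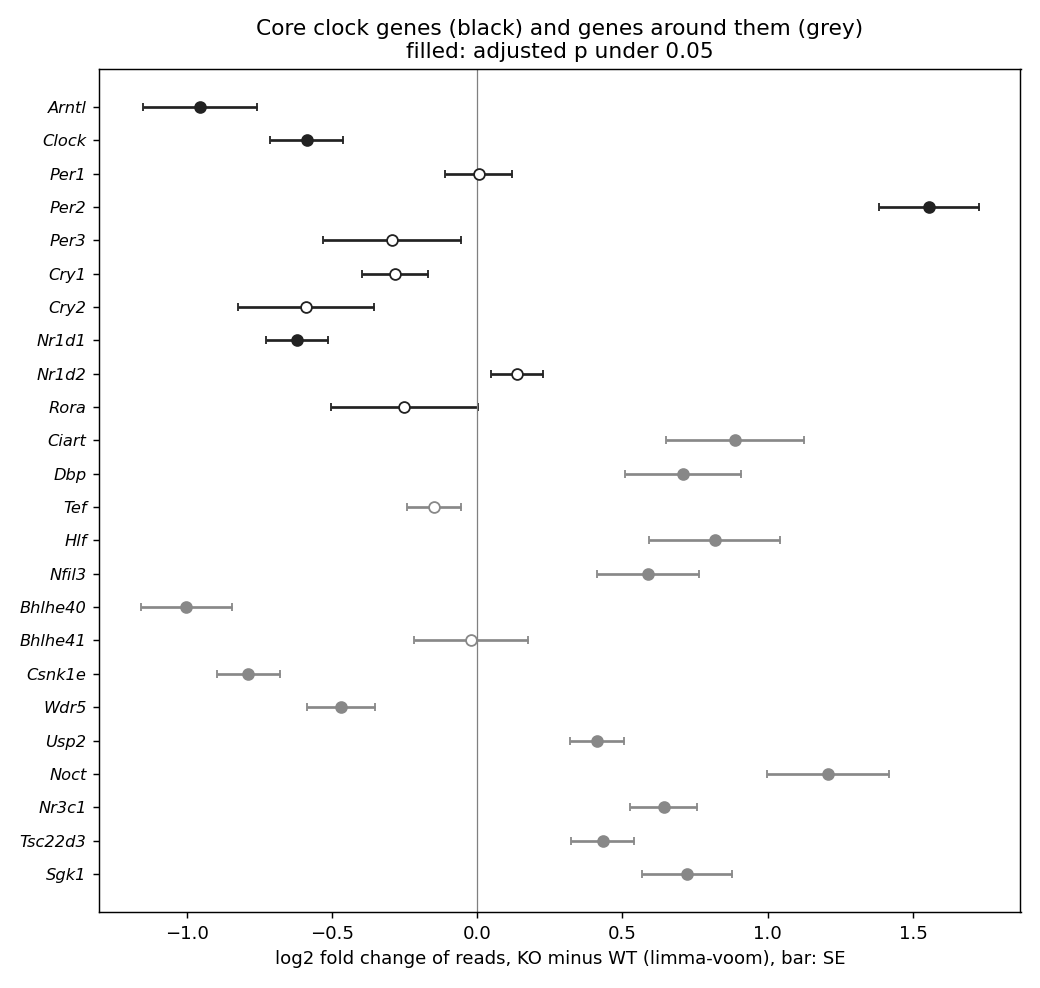
Log2 fold change of recovered reads, KO minus WT, with its SE, from limma-voom with no filter, for the 10 core clock genes (black) and 14 genes around them (grey); filled points have an adjusted p under 0.05. Per2 lies farthest to the right at 1.55, and Arntl at -0.95 farthest to the left among the core clock genes.

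For Arntl, Per2 and Nr1d1 the tested genes with the most similar profile over the 6 libraries were sought by Pearson's r of log2(RPKM + 1), as a description. The points share the library totals and the split by genotype. Arntl was followed most closely by Ilf2, Irf2 and Lemd2 (r = 0.997, 0.996 and 0.993). Per2 was followed by Tfrc, Sh3kbp1 and Gm15816 (r = 0.998, 0.997 and 0.995). Sh3kbp1 reached 1 RPKM in the KO libraries only, so it entered this comparison through the group where it was high. Tfrc, the transferrin receptor gene, had means of 1.74 ± 0.477 RPKM for WT and 6.26 ± 0.575 for KO (SD, n = 3 each). Nr1d1 was followed by Pdcd7, Nsmce1 and Snx2 (r = 0.999, 0.997 and 0.996). With 6 points many genes reach such values: r exceeded 0.9 for 871, 253 and 1145 of 7566 genes for Arntl, Per2 and Nr1d1.

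Markers of other cells moved with genotype beside these results. For the counts here, 12.4% of all genes were called lower and 3.2% higher with no filter, and 13.5% and 3.83% after it. With no filter, 7 of the 8 nerve and Schwann cell markers that had a row fell, Mbp, Pmp22 and Prx among them, and the summed level of the 8 ranged from 37.0 to 56.1 RPKM in WT and from 11.8 to 14.7 in KO. Of 7 endothelial markers 1, Cldn5, fell with no filter, a share near that of all genes, with sums of 19.9 to 31.3 RPKM in WT and 16.1 to 17.6 in KO. In limma-voom with no filter Vwf was called lower as well (adjusted p = 0.0467). Groups did not overlap for 5 of the 7, beside 38.2% of all genes. The median log2 change of the 7 was -0.35 with no filter, beside -0.07 over all genes. Mbp, Prx and Cldn5 reached 1 RPKM in the 3 WT libraries only, so the filter itself depended on their difference and counts after it are not given. Of 4 tested stromal markers 1 rose, with sums of 14.8 to 25.8 RPKM in WT and 21.7 to 27.0 in KO. Of 5 tested smooth muscle and pericyte markers 0 were called in limma or limma-voom and 1, Pdgfrb, had an unadjusted p under 0.05, with sums of 63.9 to 103.9 RPKM in WT and 70.6 to 88.55 in KO. The 3 macrophage markers with a row all failed the filter, with sums of 0.96 to 1.64 RPKM in WT and 1.40 to 1.98 in KO, and the adipocyte markers were not analysed here. Core clock genes are expressed in all these cells, so in bulk RNA fewer cells of a type and less RNA per cell cannot be told apart. The part of these markers in the clock gene differences was not tested.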

How the data were processed

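The deposited level columns, 1 per library, are taken as the authors' RPKM because they turn into whole reads as described here; their headers give no unit. GRCm39 is the build per the submitters' processing notes. Which aligner, counter and annotation were used, and whether strand was, is not stated there. The log2 fold change, the log2 CPM, the F score and the p-value and FDR columns were deposited by the authors and are named per the file headers. Lengths from GENCODE M21, or inferred from the values, and library totals gave reads within 0.02 of a whole number in all 6 libraries for 11814 of 11815 genes. For 9227 genes the length was from GENCODE M21. For the others it was searched for until the reads were whole, so those genes do not bear on the unit. Library totals were likewise fitted to give whole reads.

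Genotypes were compared with limma-trend (limma 3.58.1, R 4.3.3) on log2(RPKM + 1). It took genes reaching 1 RPKM in 3 or more libraries and had no term but genotype, with Benjamini-Hochberg adjustment over all tested genes and a two-sided threshold of 0.05. Fold changes on that scale understate the change of low genes. The fit was tested on simulated data. The members and lists were chosen with earlier results of these data known. All 10 members were named whatever their result, with up to 5 called genes of each list, the 3 genes most like Arntl, Per2 and Nr1d1, and genes overlapping a member on the opposite strand. Tcap, Slc2a4, Pdk4, Fkbp5, Klf9, Zbtb16, Crem, Creb1, Crtc2, Sik1, Csnk1d, Dbp, Tef, Hlf, Nfil3, Bhlhe41 and Noct were named after their values were seen. Some genes that the rule names are not reported here. Alternatives were a pseudocount of 0.1, no filter, equal library medians, each replicate left out and replicate number as a block. Chosen after seeing the data were limma-voom on recovered reads, with and without the filter, totals without the 10 most abundant genes, and omissions with no filter. Promoters came from RefSeq (GRCm38.p6) and overlaps from GENCODE M21 (GRCm38), not the build of the notes. Tables used pandas 2.3.3 and numpy 2.4.6, and figures matplotlib 3.10.9, all under Python 3.11.15.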

Additional observations from a re-analysis of the deposited data

How the results depend on the processing

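The count of core clock genes called (2) was 4 with no filter and 4 in limma-voom with no filter, since Per2 and Clock entered, and 1 to 3 with each replicate left out. The calls of the 5 lists around the loop (10) came to 17 in limma-voom with no filter, with 3 to 12 over the omissions. The count over all tested genes (1311) was 2004 in limma-voom with no filter and 471 to 1637 over the omissions. Of those 1311 calls 22.1% were higher in KO, against 45.7% with library medians made equal and 48.7% with totals without the 10 most abundant genes. Under both scalings Arntl (log2 change -0.50 in each) and Nr1d1 (-0.43 in each) stayed lower and called. Nr1d2 moved to 0.24 in each and was not called (limma adjusted p = 0.061 with equal medians and 0.058 with the reduced totals). Cry1 moved to -0.11 in each and was not called (0.38 and 0.345). Clock, Per2 and Per3, below the filter, were not fitted under these scalings. With replicate number as a block, Cry2 was called as well (log2 change -0.51, limma adjusted p = 0.0156), Per1 changed sign to -0.058, and Ciart, Usp2 and Tsc22d3 were no longer called (limma adjusted p = 0.148, 0.0565 and 0.0885). Only numbers 2 and 3 occur in both genotypes, so in the block fit WT replicate 4 and KO replicate 1 carried no weight in the genotype term. The block fit therefore kept little spread of its own per gene. Its p-values rest largely on spread that limma borrows from other genes. Deviations from the group mean correlated at 0.479 and 0.27 between libraries of the same number. Between WT replicate 4 and KO replicate 1, of unlike number, they correlated at 0.431, and the other pairs ran from -0.389 to -0.052. The labels do not say what a number marks. Over the omissions Per1 ranged from -0.044 to 0.086 and Rora from -0.33 to 0.044, so both changed sign. The 6 ratios kept their direction and moved by less than 1 SD with each replicate left out. Depth limits Per2 and Per3, which had as few as 102 and 166 reads in a library.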
